A study of Rattus norvegicus with 54 samples.

Results

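Rosiglitazone and AG035029 in obese muscle are described here from 6 arrays, 3 for each ligand, set against the 3 arrays of untreated obese muscle. The series holds 54 arrays of male Zucker rats, 18 of them from gastrocnemius, a mixed calf muscle, and the others from epididymal fat and liver. Treated and untreated obese rats were all fa/fa, so they lack a working leptin receptor, and lean rats (fa/+) carried 1 intact copy of that gene. The untreated obese and the lean rats had normal chow, per the labels. Each array held RNA pooled from 2 rats, so 3 arrays stand for 6 rats in a group, and doses, treatment times and ages are not given in the labels. Rosiglitazone is a thiazolidinedione, while AG035029 appears in the labels under that code alone. Pioglitazone and troglitazone, 2 further thiazolidinediones, were given to other groups of 3 arrays each. Levels are MAS5 signals, a linear intensity per probe set, and changes are differences of log2(signal + 20), a scale that understates the change of low signals.

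PPARgamma is a nuclear receptor that, with a ligand bound, pairs with RXR and switches on genes of fatty acid uptake, storage and fat cell formation. It is most abundant in fat cells and scarce in muscle fibres, yet its ligands improve insulin action in muscle. Gastrocnemius also contains fat cells between its fibres, capillaries, nerve and connective tissue, and a change in bulk muscle RNA may come from any of them. In bulk samples fewer cells of a type and less RNA per cell cannot be told apart.

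The 2 ligand groups were picked because earlier work on these arrays found them to carry less fat cell RNA than the other ligand groups, so fat cell markers are given as a description with no test. A fat marker score, the mean of centred log2 signals of Fabp4, Aqp7, Adrb3, Plin1 and Cfd, averaged 0.10 with rosiglitazone and 0.05 with AG035029. It averaged 0.48 with pioglitazone, 0.89 with troglitazone, and -0.76 in both untreated obese and lean muscle. The ligand groups were thus low among treated groups but above untreated muscle. The summed signal of the 5 markers ran from 9207 to 16721 with rosiglitazone and from 10976 to 21491 with AG035029, against 3544 to 6375 in untreated obese muscle, with no overlap. Most of that sum was Fabp4, at 7466 to 14955 with rosiglitazone, 9704 to 18206 with AG035029 and 2537 to 5139 in untreated obese muscle. Taken singly, Fabp4 and Aqp7 did not overlap between ligand and untreated arrays, while Cfd, Adrb3 and Plin1 did. AG035029 replicate 2 had the highest score of the 6 arrays, 0.66, which lies inside the pioglitazone range of 0.16 to 1.01. Of the 12 markers listed, 9 were annotated on the array and 5 passed the filter on low signals. The fat genes Lep, which encodes leptin, and Acvr1c, a receptor of the fat cell, stayed near the lower end of the scale. Lep had signals of 26.1, 28.7 and 21.6 with rosiglitazone and 12.3, 28.6 and 20.2 with AG035029, against 13.1, 25.2 and 47.2 in untreated obese muscle. Acvr1c lay between 8.1 and 19.4 in ligand-treated muscle and between 8.0 and 16.6 in untreated obese muscle. Other fat genes were higher. The lipase gene Lipe averaged 143 with rosiglitazone and 145 with AG035029, against 52.1 in untreated obese muscle, with overlap between arrays. Aqp7 averaged 665 with rosiglitazone and 636 with AG035029, against 287 in untreated obese muscle.

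Muscle markers were high on every array. The 11 skeletal muscle markers summed to between 447118 and 705258 in ligand-treated muscle and between 469451 and 533053 in untreated obese muscle. Array medians lay between 191 and 232 across all 18 muscle arrays. Single arrays stood apart. Untreated obese replicate 1 had 2280 units of the slow myosin gene Myh7, against 33285 and 14691 in replicates 2 and 3. AG035029 replicate 2 was low too, at 5648 against 27118 and 37207, and rosiglitazone arrays had 10658 to 22749. Untreated obese replicate 3 had 10818 units of summed nerve markers, against 3063 and 2825 in replicates 1 and 2. AG035029 replicate 2 had 12265 units of them, against 3133 and 2740 in replicates 1 and 3. Counts without each of these arrays are given below.

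In the test of both ligands together, 15 of 9519 probe sets were called, 0.158% (limma, Benjamini-Hochberg adjusted p under 0.05). They represent 12 genes, 9 higher and 3 lower, and the 6 ligand arrays did not overlap the 3 untreated arrays at any of them. Across all tested probe sets 3.36% lacked such overlap. The 15 were called on these same arrays, which favours such separation, so it is a description and is not read against that share. Fabp4 is one of the 15 and also a marker behind the choice of groups, so its place in this and later counts is a description. Higher calls made up 0.116% of probe sets and lower calls 0.0420%. The higher genes are carriers of lipid and retinol (Rbp7, Fabp4, Fabp5), the capillary anchor of lipoprotein lipase (Gpihbp1), enzymes and helpers of lipid turnover (Scd, Thrsp, Mgll), the electron donor Por and the receptor itself (Pparg). The lower genes are Igfbp5, Aqp1 and Tfrc. The estimates of both ligands had the same sign at all 15. The calls were made on the mean of both ligands against the same untreated arrays, which favours a shared sign.

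**Figure D1:**
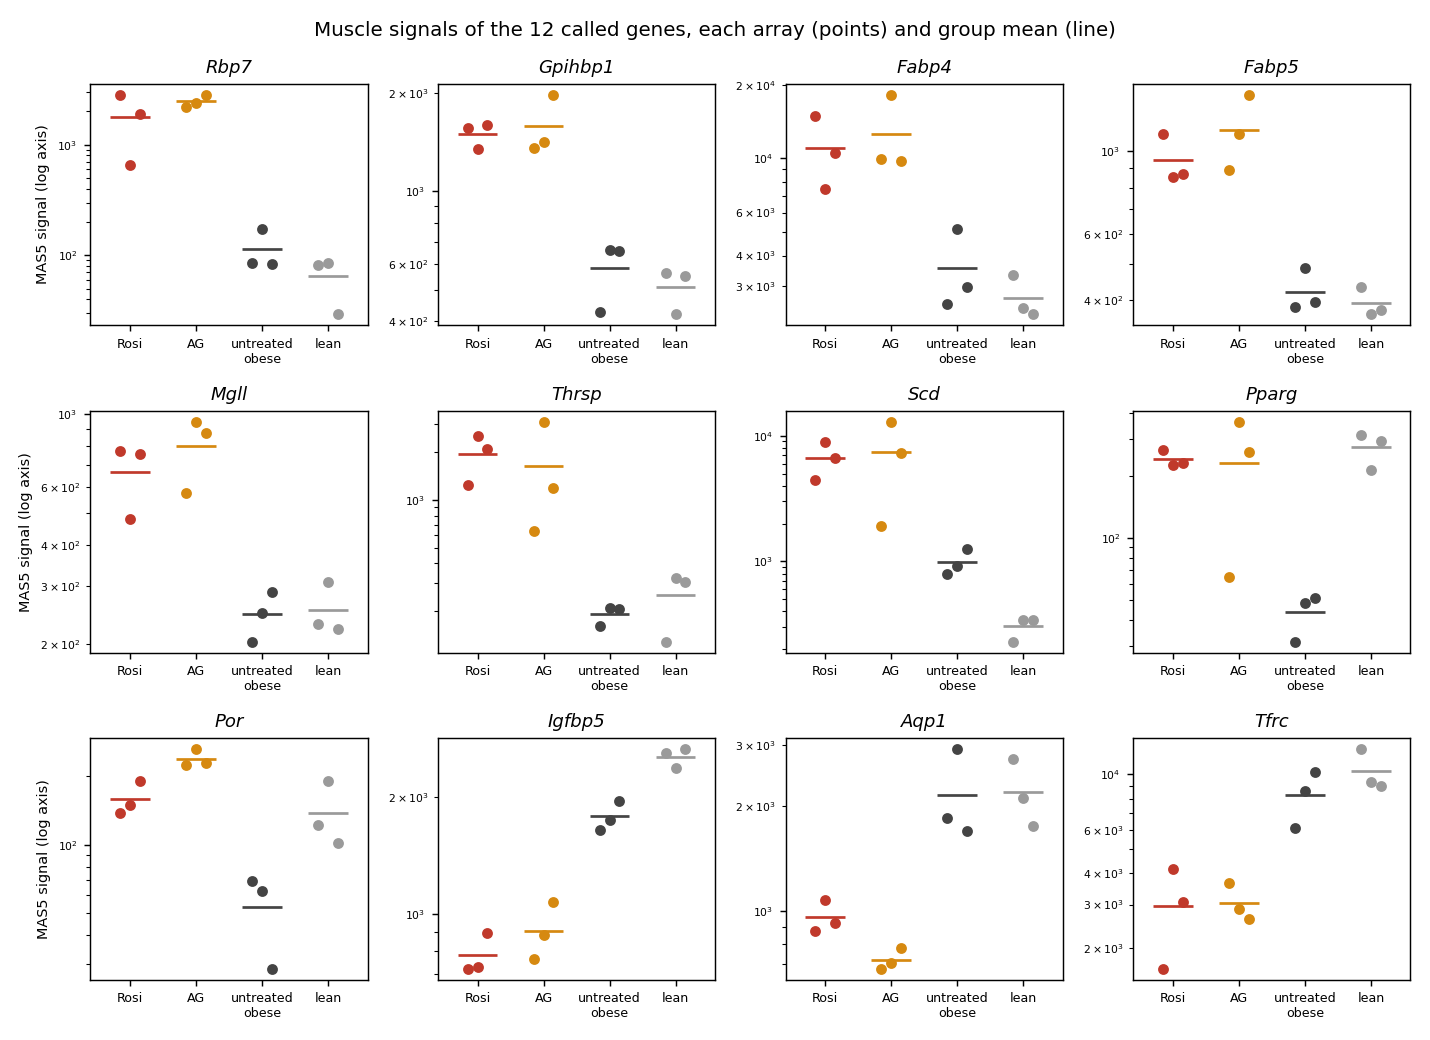
Each panel plots 1 called gene in muscle, with the MAS5 signal on a log axis, a point per array and a line at the group mean, for rosiglitazone (Rosi), AG035029 (AG), untreated obese and lean groups of 3 arrays. The 6 ligand arrays lie apart from the 3 untreated obese arrays in all 12 panels, and in the Pparg panel AG035029 replicate 1 lies at 64.5 and the highest untreated array at 51.3. The genes were called on these same arrays, which favours such separation.

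Rbp7, an intracellular retinol-binding protein of fat and endothelium, changed most. Its signals were 2782, 660 and 1882 with rosiglitazone and 2205, 2370 and 2832 with AG035029, against 85.6, 172 and 83.3 in untreated obese muscle. Every treated array was above every untreated one, and rosiglitazone replicate 2 was the low treated array. The mean of the 2 ligands was 3.93 ± 0.34 higher in log2 (standard error, limma, adjusted p = 2.94e-06), a 15.2-fold change, with 3.58 for rosiglitazone (adjusted p = 0.000148) and 4.27 for AG035029 (adjusted p = 8.14e-06). Pioglitazone muscle had 2754 to 4571 units and troglitazone muscle 3132 to 4236.

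Gpihbp1, which tethers lipoprotein lipase to the capillary wall, had 1565, 1345 and 1590 units with rosiglitazone and 1355, 1419 and 1975 with AG035029, against 428, 659 and 654 in untreated obese muscle. All treated arrays lay above all untreated arrays by more than either group's own range. The change was 1.39 ± 0.20 in log2 (limma, adjusted p = 0.00395), and each ligand passed by itself, with 1.36 for rosiglitazone (adjusted p = 0.0364) and 1.42 for AG035029 (adjusted p = 0.0125).

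Fabp5, a cytosolic fatty acid carrier, averaged 946 ± 147 with rosiglitazone and 1141 ± 264 with AG035029, against 422 ± 56.8 in untreated obese muscle (SD, n = 3 arrays each). It rose by 1.25 ± 0.19 in log2 (limma, adjusted p = 0.00519). Its fat cell relative Fabp4 averaged 10967 ± 3768 with rosiglitazone and 12607 ± 4851 with AG035029, against 3553 ± 1392 in untreated obese muscle (SD, n = 3 arrays each). Fabp4 belongs to the marker list behind the choice of groups, so its rise of 1.73 in log2 is a description.

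Scd, the desaturase that makes oleate, had 4439, 8923 and 6618 units with rosiglitazone and 1899, 12914 and 7298 with AG035029, against 798, 915 and 1252 in untreated obese muscle. AG035029 replicate 1 was the nearest treated array to untreated muscle, and AG035029 replicate 2 the highest. The change was 2.61 ± 0.47 in log2 (limma, adjusted p = 0.0211). Thrsp, a nuclear protein that promotes fatty acid synthesis, rose by 2.93 ± 0.51 at 1 probe set (limma, adjusted p = 0.0135). Its other 2 probe sets, 1 of which has the highest mean of the 3, were 2.37 and 2.34 higher and did not pass (adjusted p = 0.0789 and 0.137). Mgll, which splits monoglycerides, rose at all 3 of its tested probe sets, by 1.47, 1.45 and 1.47 in log2 (limma, adjusted p = 0.00666, 0.00828 and 0.0423).

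Por, the flavoprotein that feeds electrons to cytochromes P450, had 138 to 191 units with rosiglitazone and 225 to 264 with AG035029, against 28.5 to 69.5 in untreated obese muscle and 102 to 191 in lean muscle. It rose by 1.59 ± 0.29 in log2 at this probe set (limma, adjusted p = 0.0211). Its second probe set, which has the higher mean signal, was -0.21 and did not pass. Pparg had 266, 225 and 229 units with rosiglitazone and 64.5, 364 and 260 with AG035029, against 31.4, 48.2 and 51.3 in untreated obese muscle. Lean muscle had 314, 213 and 294 units, so the untreated obese group was the low one. The rise was 1.89 ± 0.35 in log2 (limma, adjusted p = 0.0243). The log2 difference of untreated obese from lean muscle was -2.20, which missed the threshold (limma, adjusted p = 0.0837), and this comparison shares the untreated obese arrays.

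Promoter sequences from RefSeq (build GRCr8) were searched in 250 bases before to 50 after the start for the motif that PPARgamma and RXR bind, a direct repeat of AGGTCA with 1 base between. Promoters were found for 9 of the 12 genes. The full repeat, on either strand, occurred in 0.0538% of 33469 promoters and in none of these genes. With each half-site loosened to AGGNNA it occurred in 2.93% of promoters and, among the called genes, in Rbp7 alone. The half-site AGGTCA occurred in 16.2% of promoters and, among the called genes, in Por alone. The half-site is also part of the full repeat. A match describes letters, not a binding site, and both matches lie on the strand opposite to the one printed. The Rbp7 promoter is shown because its gene changed most, with the loosened repeat in capitals, and Por for its half-site, as the 250 bases before the start, both on the minus strand, at chr5:165177400-165177649 and chr12:26635810-26636059.
Rbp7: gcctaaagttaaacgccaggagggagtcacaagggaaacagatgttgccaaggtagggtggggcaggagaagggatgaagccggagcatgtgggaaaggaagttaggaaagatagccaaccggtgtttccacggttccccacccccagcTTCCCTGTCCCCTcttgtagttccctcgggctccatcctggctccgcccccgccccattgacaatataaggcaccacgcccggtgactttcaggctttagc
Por: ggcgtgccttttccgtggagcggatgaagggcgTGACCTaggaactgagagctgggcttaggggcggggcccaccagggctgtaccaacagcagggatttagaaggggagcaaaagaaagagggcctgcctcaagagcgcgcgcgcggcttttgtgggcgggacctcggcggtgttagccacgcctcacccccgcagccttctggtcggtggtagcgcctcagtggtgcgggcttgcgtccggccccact

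The 3 lower genes are a secreted binder of insulin-like growth factors, a water channel and an iron receptor. Igfbp5 had 722, 731 and 892 units with rosiglitazone and 764, 882 and 1070 with AG035029, against 1641, 1747 and 1955 in untreated obese muscle. All treated arrays were lower. It fell by 1.07 ± 0.13 in log2 (limma, adjusted p = 0.00074), and each ligand passed, with -1.17 for rosiglitazone (adjusted p = 0.00167) and -0.97 for AG035029 (adjusted p = 0.0125). Lean muscle had 2368 to 2658 units. The second tested Igfbp5 probe set did not follow, at 0.03 (limma, adjusted p = 0.996), and another lay below the filter. Aqp1, the water channel of capillary endothelium and red cells, averaged 956 ± 103 with rosiglitazone and 722 ± 51.9 with AG035029, against 2161 ± 671 in untreated obese muscle (SD, n = 3 arrays each). It fell by 1.32 ± 0.20 in log2 (limma, adjusted p = 0.00519), while its second probe set was -0.85 and did not pass (adjusted p = 0.231). Tfrc, the transferrin receptor, fell at both of its probe sets, by 1.48 and 1.31 in log2 (limma, adjusted p = 0.0352 and 0.0499). The secreted protease gene Htra1 and the Polycomb gene Rnf2 had the next smallest p of the lower genes, with -0.80 and -0.85, and did not pass (limma, adjusted p = 0.0796 and 0.0865).

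**Figure D2:**
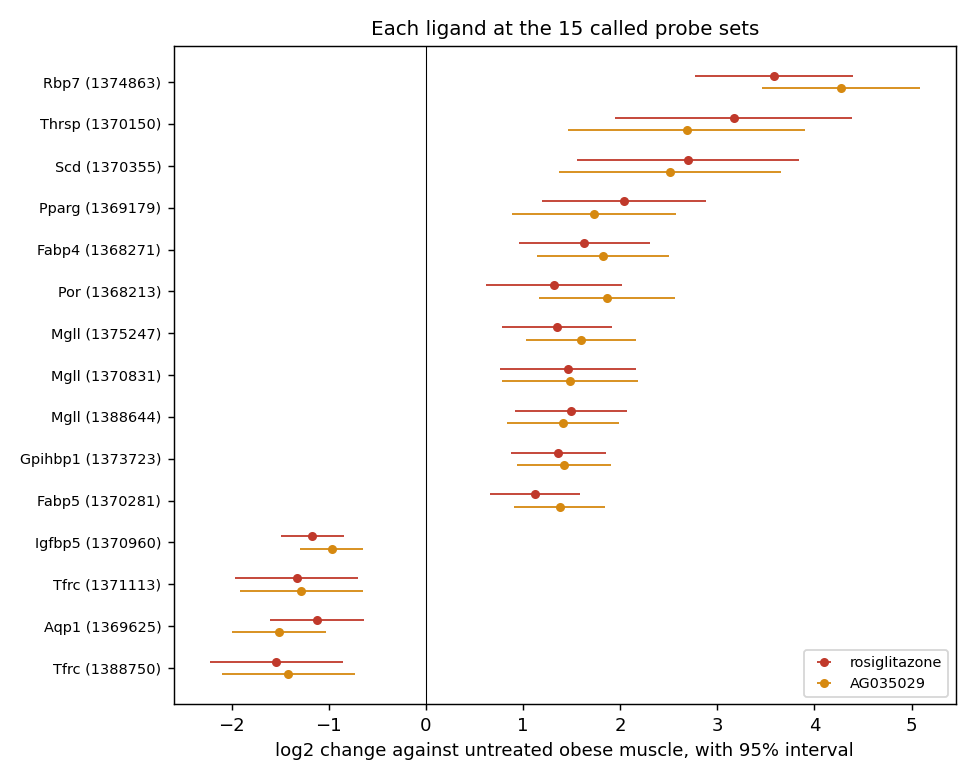
The log2 change against untreated obese muscle at the 15 called probe sets, with points for rosiglitazone and AG035029 and bars for 95% intervals from limma. The 2 points of each probe set lie on the same side of 0 and their intervals overlap throughout. Calling on the mean of both ligands against the same untreated arrays favours a shared side.

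For the single ligands, rosiglitazone gave 3 called probe sets (0.0315%), Rbp7, Gpihbp1 and Igfbp5. AG035029 gave 11 (0.116%), which include these 3 genes, Aqp1, Fabp4, Fabp5, Mgll, Por and Creg1, and 1 unnamed probe set. The difference between the ligands was tested itself, as 1 pair of compounds. It called 0 of 9519 (0%, limma), and 675 probe sets, 7.09%, had an unadjusted p under 0.05. At the 15 called probe sets the differences ran from -0.69 for Rbp7 (95% interval -1.50 to 0.12) to 0.49 for Thrsp (95% interval -0.73 to 1.71). Intervals of that width do not show that the ligands act alike, and since doses are not stated the values cannot be set at a matched dose.

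Creg1, a secreted glycoprotein of cell differentiation, carried the smallest p of the difference. It had 1121, 1215 and 1096 units with rosiglitazone and 2342, 2040 and 3344 with AG035029, against 1109, 1258 and 1049 in untreated obese muscle. AG035029 arrays were all higher than the other 6. It rose by 1.14 with AG035029 against untreated muscle (limma, adjusted p = 0.0129), its second probe set being 0.85 (adjusted p = 0.461), and the difference between the ligands was -1.13 (adjusted p = 0.0935). Hbb, the beta globin gene, was 13359, 14134 and 12687 with rosiglitazone and 45309, 36600 and 35640 with AG035029, against 13265, 24367 and 31683 in untreated obese muscle. The summed erythroid signal was 13534 to 15058 with rosiglitazone and 38076 to 48171 with AG035029, with no overlap. However, Hbb (-1.54, limma, adjusted p = 0.239) and Alas2 (-2.17, adjusted p = 0.213), the haem synthesis enzyme of red cell precursors, did not pass. Smooth muscle marker sums did not overlap either, at 19286 to 21195 with rosiglitazone and 22290 to 22645 with AG035029. Sums of the other cell type lists overlapped between these ligands. Creg1, Car2 and erythroid signal were higher with AG035029 together, and the part of blood in the first 2 was not tested. Car2, a carbonic anhydrase that red cells carry too, averaged 263 with rosiglitazone and 856 with AG035029 (-1.64 in log2, limma, adjusted p = 0.0982), and its second probe set was -1.29 (adjusted p = 0.653). The lipid carrier gene Stard10, the ubiquitin ligase adaptor gene Fbxl19 and the channel subunit gene Cacng2 were 1.41, 2.20 and 2.002 higher with rosiglitazone than with AG035029, and the platelet gene Pf4 was -2.09 in the same difference. None of these passed (limma, adjusted p = 0.0982, 0.0982, 0.213 and 0.213).

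**Figure D3:**
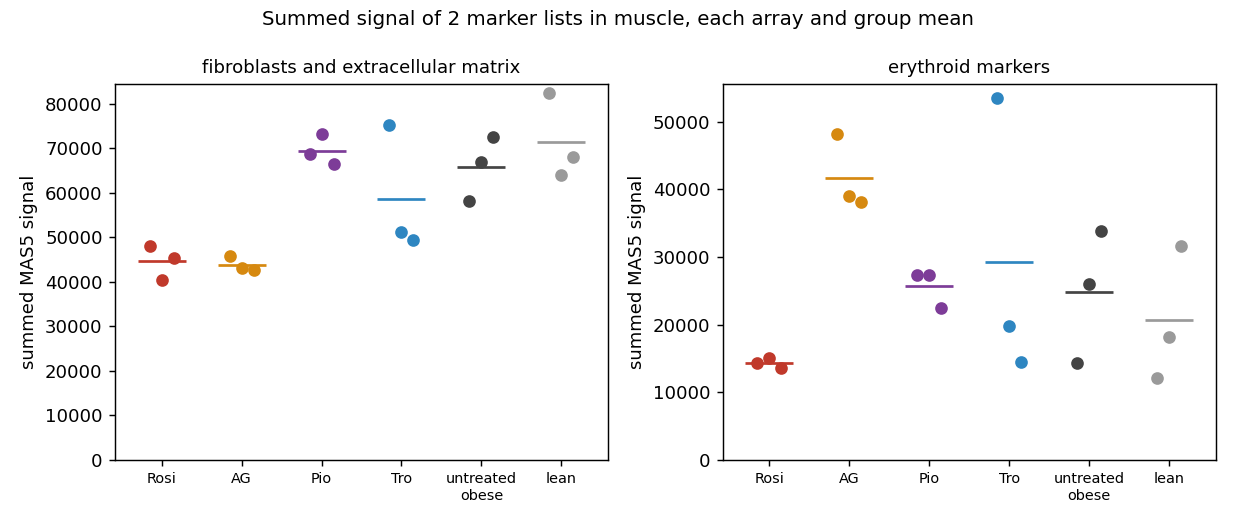
Summed MAS5 signal for 24 fibroblast and matrix genes (left) and 4 erythroid genes (right) in muscle, with a point per array and a line at each group mean of 3 arrays. Matrix sums of both ligand groups lie under all 3 untreated obese arrays, and erythroid sums of the rosiglitazone and AG035029 groups do not overlap.

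The rise of a gene in muscle can be set beside its level in fat. For each probe set the muscle signal above the untreated mean was divided by the adipose signal under the same ligand. All 11 higher probe sets had more signal in untreated adipose tissue than in untreated muscle, by 3.18 to 78.8 times. The rise came to 45.6% of the adipose level with rosiglitazone and 44.4% with AG035029 for Rbp7. It was 36.6% with rosiglitazone and 35.1% with AG035029 for Gpihbp1, and 33.1% with rosiglitazone and 39.2% with AG035029 for Scd. With rosiglitazone, Fabp4 reached 45.9%, Pparg 15.4%, Thrsp 9.63%, Por 9.49% and Fabp5 7.74%. With AG035029, Fabp4 reached 60.5%, Por 13.6%, Fabp5 11.97%, Pparg 11.96% and Thrsp 8.39%. Mgll lay between 5.58% and 13.3% over its 3 tested probe sets and both ligands. Other fat markers lay lower on this measure, apart from the adrenergic receptor gene Adrb3, at 12.6% with rosiglitazone and 7.95% with AG035029. The lipid droplet gene Plin1 was at 5.13% with rosiglitazone and 0.21% with AG035029, the glycerol channel gene Aqp7 at 4.42% with rosiglitazone and 3.62% with AG035029, and Cebpa, a transcription factor of fat cell formation, at 3.35% with rosiglitazone and 2.56% with AG035029. The hormone-sensitive lipase gene Lipe was at 1.37% with rosiglitazone and 1.21% with AG035029, and the adipsin gene Cfd at 0.35% with rosiglitazone and 3.51% with AG035029. Lep was at -0.07% with rosiglitazone and -0.22% with AG035029, and Acvr1c at -0.04% with rosiglitazone and -0.03% with AG035029. By array, Rbp7 ran from 14.99 to 73.2%, Gpihbp1 from 27.1 to 48.9%, and Fabp4 from 24.2 to 97.8%. Scd ran from 5.60 to 73.3%, Pparg from 1.34 to 20.6% and Thrsp from 2.56 to 16.8%. Por ran from 7.56 to 15.4%, Fabp5 from 6.37 to 16.6% and Mgll, over its 3 tested probe sets, from 3.69 to 17.9%. The ranges of Scd, Pparg, Thrsp, Por, Fabp5 and Mgll each overlapped those of Adrb3, Cfd, Cebpa and Plin1, given next. Of the other fat markers Adrb3 ran from -0.99 to 18.3% and so overlapped Rbp7, Cfd from -1.86 to 10.8%, Cebpa from -1.71 to 9.82%, Plin1 from -3.93 to 8.84%, Aqp7 from 2.44 to 5.54%, Lipe from 0.05 to 2.34%, Acvr1c from -0.43 to 0.70% and Lep from -0.44 to 0.0044%.

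**Figure D4:**
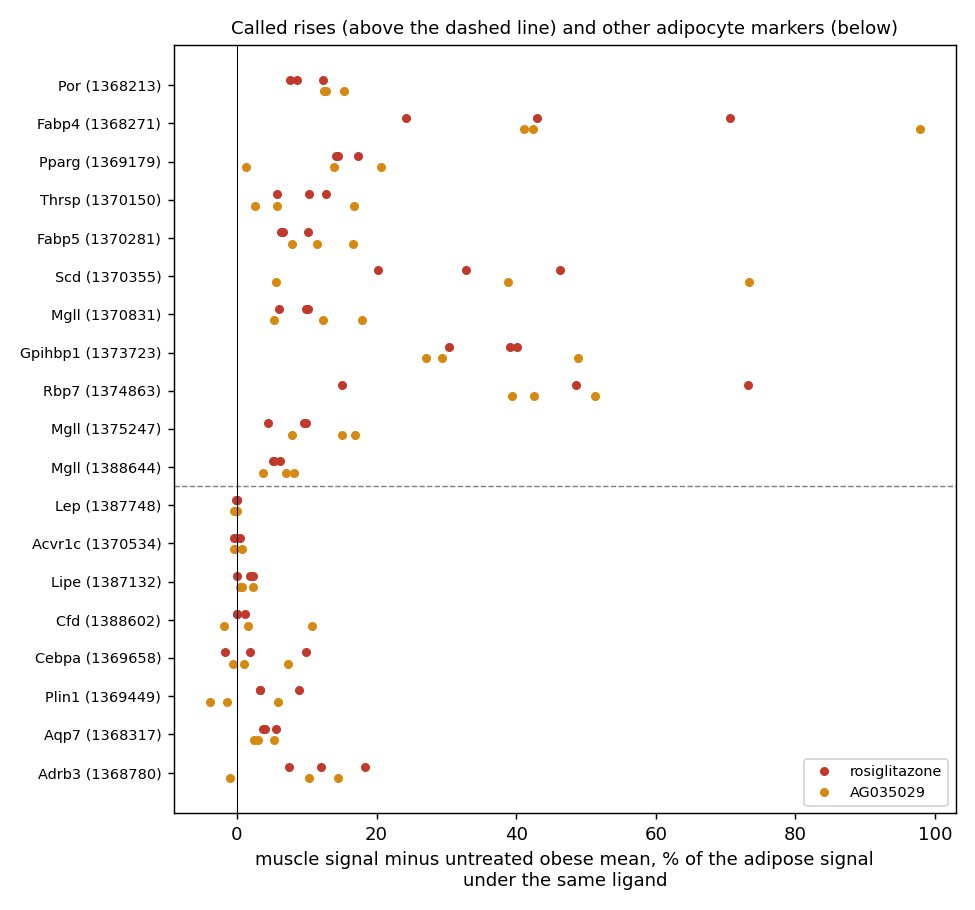
For each probe set, the muscle signal of each treated array minus the untreated obese mean, as a percent of the adipose signal under the same ligand. The probe sets called higher stand above the dashed line and other adipocyte markers below it, and Rbp7, Gpihbp1, Scd and Fabp4 lie furthest right.

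The called probe sets were also fitted with the fat marker score of each array as a covariate. With all 5 markers in the score only Rbp7 passed among the 15, at 3.48 (limma, adjusted p = 0.00125). The score itself differed between the groups and contains Fabp4, so ligand and score cannot be fully told apart. A score without Fabp4 and Aqp7, both known PPARgamma targets, was made after their values were seen and separated the groups less. It ran from -0.12 to 0.12 with rosiglitazone and from -0.94 to 0.54 with AG035029, against -0.62 to -0.39 in untreated obese muscle, so AG035029 replicate 1 lay below all untreated arrays. With it 11 of the 15 passed, and Por, Pparg, 1 Mgll and 1 Tfrc probe set did not, which is given as a description. Estimates of Igfbp5, Aqp1 and Gpihbp1 were -1.06, -1.40 and 1.34 under the full score, against -1.07, -1.32 and 1.39 without it, with adjusted p of 0.0647, 0.118 and 0.151. Those of Scd and Thrsp were 1.08 and 1.49 under the full score, against 2.61 and 2.93 without it. The part of fat cells in the Scd, Thrsp, Fabp4 and Mgll changes was not tested beyond these values.

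**Figure D5:**
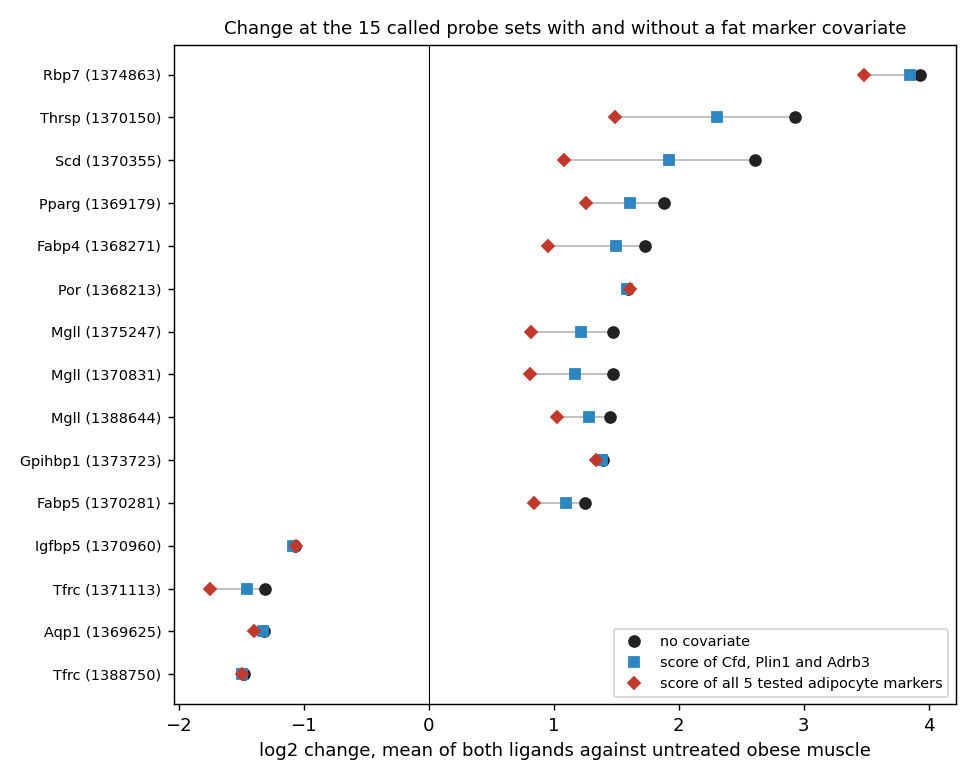
Log2 change of the 2 ligands together at the 15 called probe sets, without a covariate (circles), with a score of Cfd, Plin1 and Adrb3 (squares) and with a score of all 5 tested markers (diamonds). Por, Igfbp5, Gpihbp1, Aqp1 and 1 Tfrc probe set keep nearly the same value in all 3 fits, and Thrsp and Scd move most.

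Many of these calls depended on single arrays. Rbp7, Igfbp5 and Aqp1 passed in all 9 runs that left out 1 array. The 2 Tfrc probe sets passed in 2 and 1 of these runs, Pparg and 1 Mgll probe set in 2, Scd in 3 and Por in 4. The remaining called probe sets passed in 6 to 8. Without untreated obese replicate 1, the untreated array of low Myh7, 4 probe sets were called, all among the 15. Without untreated obese replicate 3 the number was 5. Without AG035029 replicate 2, the array of highest fat score, 10 were called, and without AG035029 replicate 3 the number was 9.

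The signals of matrix genes lay low in ligand-treated muscle. Of 24 fibroblast and matrix genes 0 were called (limma), while 2 were when the fit held the compared groups alone, and 16 were lower at an unadjusted p under 0.05, against 3.53% of all probe sets (6.64% in either direction), and 8 had no overlap, against 1.97%. Their median change was -0.45 in log2, against -0.03 over all probe sets. The summed signal was 40420 to 48098 with rosiglitazone and 42594 to 45712 with AG035029, against 58128 to 72479 in untreated obese muscle, where pioglitazone had 66492 to 73117 and troglitazone 49392 to 75223. The fibrillar collagen gene Col1a1 had 4389, 2958 and 3764 units with rosiglitazone and 3089, 2383 and 3442 with AG035029, against 5302, 8542 and 8960 in untreated obese muscle. All 6 treated arrays were lower, and the change of -1.17 ± 0.28 in log2 did not pass (limma, adjusted p = 0.160). Col1a2, its partner chain, was -1.04 (adjusted p = 0.231), fibronectin Fn1 -0.64 (adjusted p = 0.166) and the collagen-binding Sparc -0.61 (adjusted p = 0.193). The basement membrane gene Col4a1 was -0.83 at 1 probe set (adjusted p = 0.118). It was -0.07 at the other, which has the higher mean and so stands for the gene in the list. Without untreated obese replicate 3, 8 of the 24 were lower at an unadjusted p under 0.05.

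Among 21 genes of fatty acid and triglyceride synthesis, Scd and Mgll were called and 10 were higher at an unadjusted p under 0.05, against 3.11% of all probe sets, with a median of 0.54. Thrsp stands in this list by its probe set of highest mean, which did not pass. Fasn, the fatty acid synthase, was 1.65 (limma, adjusted p = 0.693), with 1.93 for rosiglitazone and 1.36 for AG035029, and Acly, which makes cytosolic acetyl-CoA, was 1.15 (adjusted p = 0.722). In a list of 30 PPAR target genes, 1 was called, Scd, and 9 were higher at an unadjusted p under 0.05. The list does not hold Fabp4 and Aqp7, which stand among the fat markers, nor the called genes Rbp7, Gpihbp1, Fabp5, Mgll and Thrsp, so its count is not one of all PPAR targets. Pck1, a key enzyme of glyceroneogenesis, was 2.11 (adjusted p = 0.111), the lipase inhibitor Angptl4 1.08 (adjusted p = 0.601), the fatty acid transporter Cd36 0.79 (adjusted p = 0.608) and Lpl, the lipase that Gpihbp1 anchors, 0.92 (adjusted p = 0.461). Of 48 citrate cycle and respiratory chain genes 0 were called (limma) and 0 had an unadjusted p under 0.05, with a median of 0.01. The 2 ligands differed in sign behind that median: 37 of the 48 were positive with rosiglitazone, with a median of 0.12, and 14 were positive with AG035029, with a median of -0.09, against medians of -0.02 and -0.03 over all probe sets. The difference between the ligands was positive for 39 of the 48, with a median of 0.18, and 0 were called in it (limma). In that difference 4 of the 48 had an unadjusted p under 0.05, all higher with rosiglitazone, against 7.09% of all probe sets in either direction. In 11 of the 48 all rosiglitazone arrays lay above all AG035029 arrays, against 6.56% of all probe sets. Of 25 fatty acid oxidation genes 0 were called for the ligand mean and 1 was higher at an unadjusted p under 0.05. Pdk4, the brake on pyruvate oxidation, was 0.56 (adjusted p = 0.843), and the glucose transporter Slc2a4, the carnitine transferase Cpt1b and the mitochondrial carrier Ucp3 were 0.30, -0.02 and -0.03 (adjusted p = 0.693, 0.993 and 0.991). Fabp3, the muscle fatty acid carrier, was -0.25 and the leptin receptor gene Lepr -0.32 (adjusted p = 0.952 and 0.938). The 10 endothelial markers, a cell type that carries Gpihbp1, Rbp7 and Aqp1, had 0 calls and a median of -0.15, with summed signals of 3204 to 4326 in ligand-treated and 3582 to 3957 in untreated obese muscle.

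The same comparison in adipose tissue, tested in a joint fit of both tissues, gave a difference between muscle and fat at 12 of the 15 probe sets, with 2.07% over all probe sets (limma). The 15 had been selected for their change in muscle, which enlarges this difference, so the count is a description and is not read against that share. Rbp7 also rose in adipose tissue, by 1.24 (limma, adjusted p = 0.00706), to means of 3643 with rosiglitazone and 5301 with AG035029, against 1849 in untreated adipose tissue. Igfbp5 was -1.07 in muscle and -1.10 in adipose tissue, and the difference, 0.03, missed the threshold (limma, adjusted p = 0.972), and Aqp1 was -1.32 in muscle and -1.17 in adipose tissue, with a difference of -0.15 (adjusted p = 0.899). Gpihbp1 was 1.39 in muscle and 0.53 in adipose tissue, and the difference, 0.86, missed the threshold (limma, adjusted p = 0.0569).

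Rosiglitazone and AG035029 muscle was also set beside pioglitazone and troglitazone muscle, a contrast that the choice of groups used, so it is a description. Vim, an intermediate filament gene, Col4a1 and the antigen presentation gene B2m were -0.72, -0.91 and -0.65, the 3 probe sets past the threshold (0.0315%). There were 0 with median centring, without a trend, with only these groups in the fit, with either fat score as a covariate and in most fits that left out 1 array, but 9 without AG035029 replicate 2 and 100 without troglitazone replicate 3. The smallest p among positive values belonged to Lsm12, Sh3kbp1 and Ybx3, at 0.55, 0.62 and 0.39, and none reached the threshold.

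Untreated obese muscle against lean muscle gave 2 called probe sets (0.021%), Fos and 1 unnamed. Fos, an immediate early transcription factor gene, had 1289, 466 and 921 units with rosiglitazone and 518, 476 and 540 with AG035029, against 198, 352 and 266 in untreated obese muscle. Lean muscle had 1660, 1050 and 1734 units. Every ligand array lay above every untreated obese array, and the untreated obese arrays lay below the lean ones. The log2 difference of untreated obese from lean muscle was -2.36 (limma, adjusted p = 0.0194), and the ligand mean was 1.23 above untreated obese muscle without passing (limma, adjusted p = 0.207). The second Fos probe set gave -0.86 for the ligand mean and 0.34 for untreated obese against lean muscle, and neither passed.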

How the data were processed

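Each array held biotin-labelled cRNA from RNA pooled from 2 rats, hybridised to Affymetrix Rat Expression 230A arrays, per the labels' protocols. The deposited values are MAS5 signals, a linear intensity per probe set, per the submitters' processing notes, which give no version. Of 15923 probe sets, 57 controls were left out. Values were transformed to log2(signal + 20). Testing covered 9519 of 15866 probe sets, those whose muscle mean exceeded the 40th percentile. A single limma model (version 3.58.1, R 4.3.3, trend, 12 residual degrees of freedom) held the 18 muscle arrays, with Benjamini-Hochberg adjustment at 0.05. A joint model of muscle and adipose arrays was added after the data were seen. The pipeline was tested on simulated data. The number of arrays limits the precision: the median 95% interval of a single-ligand change reached 0.52 to each side, and that of the ligand mean 0.45.

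The groups, gene lists and comparisons were chosen with earlier results of these data known. Named genes were up to 12 called probe sets per direction with 1 symbol, or the smallest p up to 6 in a direction with fewer, up to 4 called members of a list, up to 5 per direction or 3 of smallest p in the other comparisons, and a set of PPAR and fat genes. Myh7, Hbb, Alas2, Col1a1, Col1a2, Fn1, Sparc, Fasn, Acly, Pck1, Lpl and Fos, the genes of other observations and the fat score without Fabp4 and Aqp7 were chosen after their values were seen. List genes were represented by the probe set of highest mean. Alternatives changed the pseudocount, filter, scaling, trend, array weights, replicate block, arrays fitted, threshold and fat score, and left out each array.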

Additional observations from a re-analysis of the deposited data

Results flagged for a closer look

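The ligand change in muscle differed from that in adipose tissue at 12 of the 15 called probe sets in the joint fit (limma, adjusted p under 0.05). The probe sets were selected for their change in muscle, which enlarges the difference, so these values are a description, and Fabp4 is also a marker behind the choice of groups. Muscle minus adipose tissue, the log2 difference was 2.69 for Rbp7, 2.69 for Thrsp, 2.34 for Scd, 1.80 for Pparg, 1.28 for Por, 1.47 for Fabp4 and 0.98 for Fabp5. It was 1.47, 1.19 and 1.46 at the 3 Mgll probe sets and -1.69 and -1.39 at those of Tfrc. Of these genes, Rbp7 also passed in adipose tissue by itself, where Scd was 0.27, Thrsp 0.23, Pparg 0.08 and Tfrc 0.21 and 0.08. The probe sets other than Tfrc had signals in untreated adipose tissue above those in untreated muscle, and the part of that gap in the difference was not tested.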

How the results depend on the processing

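The 15 calls numbered 12 to 16 with pseudocounts of 5 and 80, without the filter or at the 60th percentile, with quantile normalization, median centring, array weights and fits of only the groups compared, 10 without a trend, 8 at an adjusted p of 0.01, 12 with the fat score of 3 markers and 1 with that of 5. Without 1 array they numbered 4 to 18, with 9 without AG035029 replicate 3, 4 without untreated obese replicate 1 and 5 without untreated obese replicate 3. The 3 rosiglitazone calls numbered 5 with the stricter filter, median centring or the score of 3 markers, 15 with array weights, 14 with only the groups compared, 1 with the score of 5, and 2 to 8 without 1 array, 8 without untreated obese replicate 2. The 11 AG035029 calls numbered 2 without a trend or with the score of 5, 1 with only the groups compared or at 0.01, and 3 to 14 without 1 array, 3 without AG035029 replicate 3 or untreated obese replicate 1 and 5 without untreated obese replicate 3. The difference between the ligands had 3 calls with array weights, 15 with only these groups, 1 with the score of 5 and 0 to 4 without 1 array, 4 without AG035029 replicate 2. The 3 calls against pioglitazone and troglitazone numbered 0 with median centring, no trend, only these groups, either score or at 0.01, and 0 to 100 without 1 array, 100 without troglitazone replicate 3. The 2 calls of obese against lean muscle numbered 1 with no filter or median centring, 0 without a trend or at 0.01, 4 with only these groups or the score of 5, 6 with that of 3, and 0 to 4 without 1 array. List members called numbered 4, and 8 over all probe sets. With the replicate block 15 probe sets were called, 14 of them shared, and same-number arrays had a mean residual correlation of 0.0117, so numbers were not used as pairs. Uncalled values near 0 turned sign: Cpt1b (0.0147 with median centring, 0.0032 with array weights, 0.18 and 0.034 with the scores of 5 and 3, -0.15 to 0.053 without 1 array), Ucp3 (4.248e-05 with median centring, 0.23 and 0.048 with the scores, -0.23 to 0.20 without 1 array), Plin1 (-0.44 and -0.075 with the scores), Cfd (-1.16 and -0.37 with the scores, -0.035 to 0.64 without 1 array, the lowest without AG035029 replicate 2) and Fabp3 (-0.76 to 0.15 without 1 array, the highest without untreated obese replicate 2). Plin1 and Cfd are members of both scores, so a fit with either score adjusts these 2 genes partly for themselves. The cause of the other shifts was not tested. Signals near background limit Lep and Acvr1c, and they limit Pparg and Por in untreated obese muscle.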

Other observations

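Sln, which encodes the calcium pump regulator sarcolipin, had signals of 785, 909 and 1034 with rosiglitazone and 1113, 318 and 972 with AG035029, against 44.6, 378 and 236 in untreated obese muscle. It was 2.13 higher in log2 and did not pass (limma, adjusted p = 0.193), and the lowest value is from the untreated array of low Myh7. The 15 slow fibre genes had 0 calls (limma), 1 higher at an unadjusted p under 0.05, where 3.11% of all probe sets were, and a median of 0.56.

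In a list of 13 carbonic anhydrase, creatine and taurine genes 0 were called (limma) and 4 were higher at an unadjusted p under 0.05, against 3.11% of all probe sets. These were the carbonic anhydrases Car4 (1.15) and Car3 (0.76), the cysteine dioxygenase gene Cdo1 (1.19) and Csad (0.50), an enzyme of taurine synthesis. The detoxification gene Mgst1 was 1.96 (limma, adjusted p = 0.282), with 2.05 for rosiglitazone and 1.88 for AG035029. The cell cycle gene Ccnd1, which encodes cyclin D1, was -1.69 (limma, adjusted p = 0.340). Glul, the glutamine synthetase gene of muscle, was 0.65 (limma, adjusted p = 0.160) and close between the ligands, with 0.65 for rosiglitazone and 0.64 for AG035029.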
